A study of Mus musculus with 16 samples.

Results

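The chemokine genes CXCL9, CXCL10, CXCL11, CXCL12, CXCL13, CXCL14, CXCL16 and CX3CL1 were followed over all 16 arrays of primary mouse mammary fibroblasts. They were picked by symbol, and all 8 were among the 18132 genes of the table. The list was drawn up with results of these data in view, so the adjusted p values below place each difference against the spread between arrays and support nothing further.

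RNA came from fibroblasts of the inguinal mammary glands of female 129S6 mice aged 8 to 10 weeks, either MEKK1+/+ (labelled WT) or MEKK1-/- (lacking MEKK1, the kinase encoded by Map3k1). Cells of each genotype were kept in growth medium (untreated) or exposed for 8 h to growth medium harvested from cultures of the human breast cancer line MDA-MB-231 (conditioned medium, CM in the figures). Each of the 4 groups was measured on 4 Illumina Mouse 8 arrays, numbered 1 to 4. The study's methods give fewer mice of each genotype than arrays of each group, so some cultures shared a mouse and the p values measure the spread between cultures. Levels are quantile normalized log2 intensities, which are not compared between genes.

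Chemokines are small secreted proteins that steer cells carrying matching receptors. CXCL9, CXCL10 and CXCL11 are induced by interferons, recruit activated T cells and natural killer cells through the receptor CXCR3, and are encoded close together. CXCL12, CXCL13 and CXCL14 are called homeostatic because tissues make them without inflammation: CXCL12 acts on CXCR4 and CXCR7, and is a known product of the fibroblasts of breast tumors, CXCL13 guides B cells through CXCR5, and CXCL14 is made by epithelia and stroma. CXCL16, the ligand of CXCR6, and CX3CL1 (fractalkine), the ligand of CX3CR1 and of the CX3C class rather than the CXC class, are made as membrane proteins with a chemokine head, which proteases can release.

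Promoter sequences were read from the RefSeq table of GRCm38.p6, a C57BL/6J assembly, and not from these 129S6 cells. The table held 6 of the 8 genes, with no entry for CXCL11 and CXCL16. The 250 bases before the annotated start are shown 5' to 3' on the gene's strand for 5 genes that the results below turn on, in lower case with motif matches in capitals. CXCL9 (chr5:92328080-92328329, minus strand) and CXCL10 (chr5:92348890-92349139, minus strand) are shown because they were high on the same arrays. CX3CL1 (chr8:94771930-94772179, plus strand) and CXCL12 (chr6:117168285-117168534, plus strand) are shown because their means with conditioned medium lay on opposite sides of the untreated means. In MEKK1+/+ cells the untreated and conditioned medium arrays of CXCL12 overlapped. CXCL14 (chr13:56296552-56296801, minus strand) is shown because its level differed little between groups.
CXCL9: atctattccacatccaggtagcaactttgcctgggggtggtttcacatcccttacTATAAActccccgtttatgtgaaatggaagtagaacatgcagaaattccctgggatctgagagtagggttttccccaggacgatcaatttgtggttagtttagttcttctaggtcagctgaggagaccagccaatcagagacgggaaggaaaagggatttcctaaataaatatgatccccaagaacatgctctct
CXCL10: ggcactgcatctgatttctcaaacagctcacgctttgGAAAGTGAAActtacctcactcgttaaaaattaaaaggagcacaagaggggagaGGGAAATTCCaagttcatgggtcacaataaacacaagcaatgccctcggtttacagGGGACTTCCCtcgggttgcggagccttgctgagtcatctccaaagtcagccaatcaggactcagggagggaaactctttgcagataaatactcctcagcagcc
CX3CL1: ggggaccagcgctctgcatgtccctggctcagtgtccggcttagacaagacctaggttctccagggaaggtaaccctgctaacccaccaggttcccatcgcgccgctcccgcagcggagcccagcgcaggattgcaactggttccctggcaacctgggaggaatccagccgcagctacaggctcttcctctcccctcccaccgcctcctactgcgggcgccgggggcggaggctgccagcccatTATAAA
CXCL12: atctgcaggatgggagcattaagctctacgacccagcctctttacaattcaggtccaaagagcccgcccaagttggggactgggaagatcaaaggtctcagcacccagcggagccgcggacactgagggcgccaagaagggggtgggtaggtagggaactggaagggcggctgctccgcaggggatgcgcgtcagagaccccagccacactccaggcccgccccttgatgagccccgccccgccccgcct
CXCL14: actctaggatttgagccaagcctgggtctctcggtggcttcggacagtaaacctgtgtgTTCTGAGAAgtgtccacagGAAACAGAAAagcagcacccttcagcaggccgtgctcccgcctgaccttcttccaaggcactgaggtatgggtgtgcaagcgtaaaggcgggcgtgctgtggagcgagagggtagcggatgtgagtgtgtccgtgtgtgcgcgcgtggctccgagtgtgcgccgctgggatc

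Both strands were searched for an ISRE-type motif (GAAA and GAAA parted by 2 bases of any kind, the interferon response element), a GAS-type motif (TTCNNNGAA, bound by STAT dimers), an NF-kB-type motif (GGGA, 2 bases of any kind, T, 1 base of any kind and CC) and the TATA box (TATAAA). Of 32851 windows of the same length, 2.98% held the ISRE-type letters, 7.02% the GAS-type, 3.33% the NF-kB-type and 12.4% the TATA box. In CXCL10 the capitals mark an ISRE-type match at -213 to -204 and NF-kB-type matches at -159 to -150 and -103 to -94, counted from the start of the gene. CXCL14 held a GAS-type match at -191 to -183 and an ISRE-type match at -172 to -163. CXCL9 held the TATA letters at -195 to -190, CX3CL1 at -6 to -1 and CXCL13 at -46 to -41, while CXCL12 held none of the letters searched. No 2 of these matches overlapped. The share of G and C was 64.4% for CXCL12 and 64.8% for CX3CL1, against a median of 52.4% over all windows, and 44.4% for CXCL9, 48% for CXCL10, 42% for CXCL13 and 59.6% for CXCL14. A match is a stretch of letters, and binding was not measured.

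**Figure D1:**
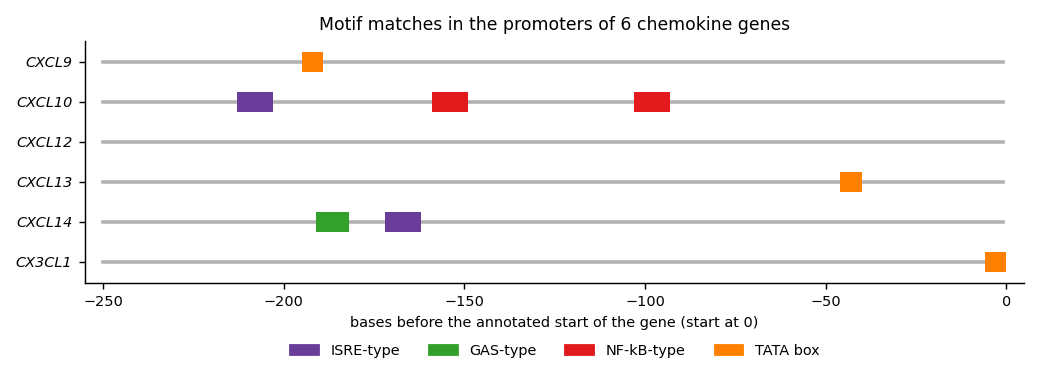
Positions of motif matches in the 250 bases before the annotated start of 6 chemokine genes (x axis, bases before the start; a row for each gene; colours mark the motif). CXCL10 holds 3 matches, CXCL14 holds 2, CXCL9, CXCL13 and CX3CL1 hold 1 match each to the TATA letters, and CXCL12 holds none.

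On every array, the level passed by 1% of 1075 olfactory receptor genes, which fibroblasts are not known to use, served as background (7.20 to 7.34 on the log2 scale). Of 10 fibroblast markers, 9 were above it on all 16 arrays. Of 12 macrophage markers, 5 were above it on all arrays, and PTPRC, FCER1G and CD163 were above it on none. The summed normalized intensity of the macrophage list ran from 7683 to 31482 on untreated MEKK1+/+ arrays, from 7512 to 24772 with conditioned medium, from 3532 to 20879 on untreated MEKK1-/- arrays and from 3989 to 17904 with conditioned medium. The mean level of 7 epithelial markers was 6.94 to 7.06 on the MEKK1+/+ arrays and 9.76 and 9.73 on the MEKK1-/- arrays numbered 1, with 6.95 to 7.52 on the other MEKK1-/- arrays. In RNA of whole cultures, fewer cells of a type and less RNA per cell cannot be told apart. MAP3K1 itself was 0.53 higher on untreated MEKK1-/- arrays than on MEKK1+/+ arrays (limma adjusted p = 0.466) and 0.33 higher with conditioned medium (adjusted p = 0.605). The place of its probe against the deleted part is not given in the sources used here, so its level does not check the labels, and genotype directions below are those of the arrays labelled MEKK1-/-.

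Of the 8 genes, CXCL12, CXCL14, CXCL16 and CX3CL1 were above background on all 16 arrays, CXCL9 on 10 and CXCL10 on 8, and CXCL11 and CXCL13 on none. With conditioned medium, CX3CL1 rose in MEKK1+/+ cells, and CX3CL1 and CXCL16 rose in MEKK1-/- cells. That made 1 of 8 genes past the adjusted threshold of 0.05 in MEKK1+/+ cells, where 5.01% of all genes passed, and 2 of 8 in MEKK1-/- cells, where 4.69% did. With the replicate number as a block within genotype, 5 of 8 passed in MEKK1-/- cells, beside 7.93% of all genes. These were CXCL12, CXCL16 and CX3CL1, and also CXCL9 and CXCL10, whose changes start from background and have no measured size. The same fit passed 4 of 8 in MEKK1+/+ cells, where 1481 genes passed in all. The 4 were CXCL9, CXCL10, CXCL16 and CX3CL1 (adjusted p from 0.00297 to 0.0292). Of these, CXCL10 was above background on 1 of 4 untreated MEKK1+/+ arrays and CXCL9 on 3 of 4. Same-numbered arrays all correlated above 0.1 in MEKK1-/- cells only, but arrays 3 and 4 there correlated better with another number. In MEKK1+/+ cells array 1 alone did so. There the numbers were not taken as pairs, and differences within numbers printed below for that genotype are descriptive only. The blocked counts are not a test of a difference between genotypes. At an unadjusted p under 0.05, without the block, 16.8% of all genes passed in MEKK1+/+ cells and 16.2% in MEKK1-/- cells. The untreated and conditioned medium arrays did not overlap for 1 of 8 genes in MEKK1+/+ cells (9.7% of all genes) and for 3 of 8 in MEKK1-/- cells (10.4%). Between genotypes 0 of 8 genes passed by limma, untreated or with conditioned medium, against 0% and 0.00552% of all genes. At an unadjusted p under 0.05, 1 of 8 passed in untreated cells (9.27% of all genes) and 0 of 8 with conditioned medium (8.09%). The genotypes overlapped for all 8 genes in both conditions, where 4.61% of all genes untreated and 4.17% with conditioned medium did not. The median log2 difference of the 8 genes was 0.33 with conditioned medium in MEKK1+/+ cells and 0.27 in MEKK1-/- cells, beside -0.002 and -0.004 over all genes.

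**Figure D2:**
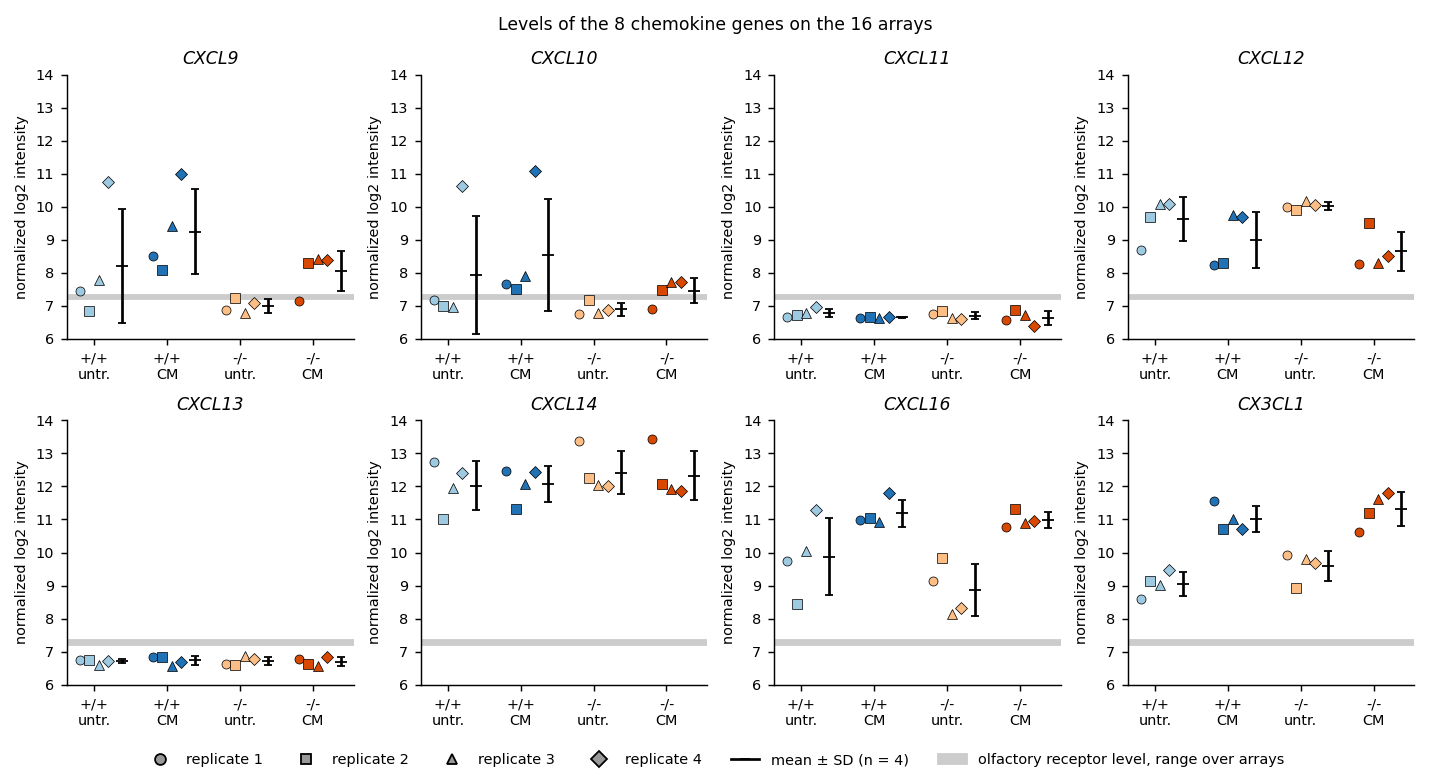
Normalized log2 intensity (y axis) of the 8 chemokine genes on each of the 16 arrays, by genotype and treatment (x axis), with the mean and SD of each group (n = 4); marker shapes give the replicate number and the grey band the range of the olfactory receptor level. CX3CL1 is higher on all conditioned medium arrays than on the untreated arrays of either genotype, CXCL9 and CXCL10 are far higher on the MEKK1+/+ arrays numbered 4 than on the others, and CXCL11 and CXCL13 lie under the band throughout.

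CXCL9, which recruits T cells through CXCR3, had levels of 7.45, 6.85, 7.78 and 10.74 on untreated MEKK1+/+ arrays 1 to 4. With conditioned medium these arrays gave 8.50, 8.09, 9.40 and 11.00. The groups overlapped because array 4 was high in both, and its untreated level was above that of the other conditioned medium arrays. The difference was 1.04 on the log2 scale (SE 0.71, adjusted p = 0.549, 2-sided exact permutation p = 0.343). Within array numbers, not taken as pairs in MEKK1+/+ cells, the conditioned medium level was above the untreated level by 1.05, 1.23, 1.62 and 0.25. The difference was 0.46 without conditioned medium array 4 and was 1.88 without untreated array 4 (adjusted p = 0.0543). Without both MEKK1+/+ arrays numbered 4, a choice made after seeing the data, the difference was 1.30 with a smaller error (SE 0.37, adjusted p = 0.0764).

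In MEKK1-/- cells CXCL9 was at background on all 4 untreated arrays, with 6.86, 7.24, 6.78 and 7.09. With conditioned medium it was 7.14, 8.29, 8.41 and 8.38, above background on 3 of 4 arrays, and array 1 alone stayed within the untreated range. Since the untreated level is only a bound, the size of the change was not measured and no fold is given for it.

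CXCL10, the other main CXCR3 ligand, had the same layout. Its levels were 7.17, 7.01, 6.96 and 10.62 on untreated MEKK1+/+ arrays and 7.65, 7.51, 7.92 and 11.07 with conditioned medium. Array 4 stood more than 3 log2 units above the next array of its group in both conditions. Only that array was above background in untreated cells, and all 4 were with conditioned medium. The difference was 0.60 (SE 0.79, adjusted p = 0.812, exact permutation p = 0.457) with all arrays and -0.25 without conditioned medium array 4 alone. It was 0.65 (SE 0.19, adjusted p = 0.0833) without both arrays numbered 4 and 1.49 without untreated array 4 alone (adjusted p = 0.217). In these last fits every untreated array left was at background, so they do not measure the size of a change.

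In MEKK1-/- cells CXCL10 had untreated levels of 6.74, 7.16, 6.78 and 6.87, all at background. Conditioned medium gave 6.92, 7.48, 7.73 and 7.71, above background on 3 of 4 arrays. As for CXCL9, array 1 stayed in the untreated range, and the size of the change was not measured. CXCL11, the third CXCR3 ligand, stayed between 6.40 and 6.96 and was at background on every array. The C57BL/6J annotation lists Cxcl11 as a transcribed pseudogene, next to Cxcl10 on chromosome 5.

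CXCL9 and CXCL10 had lower means on the conditioned medium arrays labelled MEKK1-/- than on those of MEKK1+/+ cells. The values rested on the MEKK1+/+ arrays numbered 4 in part for CXCL9 and largely for CXCL10. The MEKK1-/- minus MEKK1+/+ difference was -1.19 for CXCL9 (SE 0.71, adjusted p = 0.674, exact permutation p = 0.2) and -1.08 for CXCL10 (SE 0.79, adjusted p = 0.729, exact permutation p = 0.257). Without both MEKK1+/+ arrays numbered 4 these fell in size to -0.61 (adjusted p = 0.837) and -0.23 (adjusted p = 0.858).

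Other interferon-induced genes were read as a list of 23, of which 10 were above background on all arrays and 3 on none (ISG15 and CMPK2 were not found by symbol). Their mean level was 8.25, 7.64, 8.35 and 9.55 on untreated MEKK1+/+ arrays and 8.37, 8.22, 8.46 and 9.55 with conditioned medium. On MEKK1-/- arrays it was 7.57, 8.05, 7.63 and 7.63 untreated and 7.69, 8.28, 8.24 and 8.24 with conditioned medium. The list was highest on the MEKK1+/+ arrays numbered 4, where CXCL9 and CXCL10 were highest, and among MEKK1-/- arrays with conditioned medium it was lowest on array 1, where both were at background. On the MEKK1+/+ arrays numbered 4 the mean macrophage marker level was 8.81 untreated and 8.76 with conditioned medium, inside the 8.11 to 9.18 of the other MEKK1+/+ arrays. The part of these lists in the CXCL9 and CXCL10 levels was not tested.

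Of the 23 interferon-induced genes, 0 passed by limma in any comparison, and for conditioned medium 1 of them in MEKK1+/+ cells and 3 in MEKK1-/- cells did so before adjustment, beside 16.8% and 16.2% of all genes. In untreated cells 21 of 23 were lower on MEKK1-/- arrays, with a median of -0.73 beside 0.01 over all genes. Before adjustment 6 passed there (9.27% of all genes). With conditioned medium 22 of 23 were lower, with a median of -0.48 beside 0.004, and 1 passed before adjustment (8.09% of all genes). These counts include the 3 genes at background on every array. The untreated list mean was 9.55 on MEKK1+/+ array 4 and 7.64 to 8.35 on the other MEKK1+/+ arrays, beside 7.57 to 8.05 on MEKK1-/- arrays. How far the counts rest on array 4 was not tested. Macrophage markers moved alongside, 10 of 12 being lower on MEKK1-/- arrays in both conditions (medians -0.65 and -0.60, 0 called). Of 17 genes of interferon signalling, JAK2, a kinase of the interferon gamma receptor, rose with conditioned medium by 1.07 in MEKK1+/+ cells (adjusted p = 0.00529) and by 0.95 in MEKK1-/- cells (adjusted p = 0.0104). TYK2, a kinase of the type I receptor, rose by 0.35 in MEKK1+/+ cells (adjusted p = 0.0432), and these were the only calls of the list, which had no lower call (of all genes, the higher calls were 2.27% for MEKK1+/+ and 2.18% for MEKK1-/-, and the lower calls 2.75% and 2.51%). IFNB1 and IFNG, which encode interferons, were at background on every array.

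**Figure D3:**
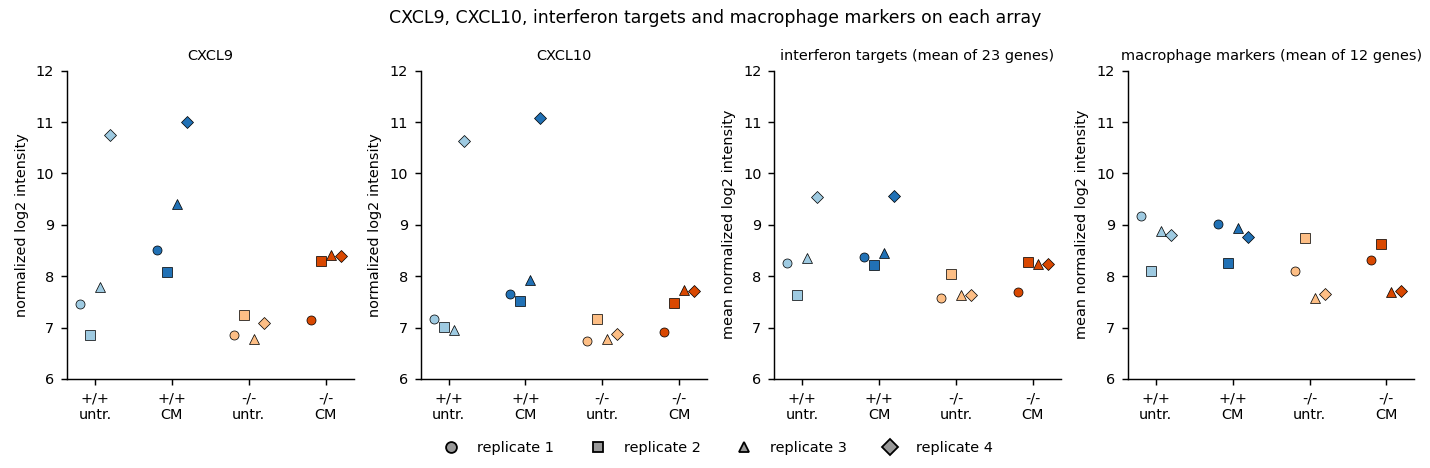
Normalized log2 intensity (y axis) of CXCL9 and CXCL10, and the mean over 23 interferon-induced genes and over 12 macrophage markers, on each of the 16 arrays by group (x axis), with marker shapes for the replicate number. The MEKK1+/+ arrays numbered 4 (diamonds) are highest in the first 3 panels, with an interferon target mean of 9.55 in both conditions, and lie inside the range of the other MEKK1+/+ arrays in the macrophage panel.

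CXCL12, the CXCR4 ligand, was above background on all arrays, with 8.68, 9.70, 10.08 and 10.08 on untreated MEKK1+/+ arrays and 8.23, 8.30, 9.74 and 9.69 with conditioned medium. The groups overlapped, and array 1 was already low without conditioned medium. The difference was -0.64 (SE 0.39, adjusted p = 0.466, exact permutation p = 0.2). Values were lower in 4 of 4 same-numbered arrays, by -0.45, -1.40, -0.34 and -0.39, but the numbers were not taken as pairs in MEKK1+/+ cells.

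In MEKK1-/- cells CXCL12 had untreated levels of 10.00, 9.89, 10.18 and 10.05. After conditioned medium it had 8.26, 9.52, 8.31 and 8.51, all below the lowest untreated array, although array 2 fell short of the others. The difference was -1.38 (SE 0.39, 2.60-fold lower, 95% CI -2.21 to -0.55). It missed the threshold by limma (adjusted p = 0.0570), while the exact permutation p was 0.0286, the smallest that 4 arrays against 4 can give. With the array number as a block it passed (adjusted p = 0.00624). Without both MEKK1-/- arrays numbered 1 it was -1.27 (adjusted p = 0.177), and leaving out single arrays gave adjusted p values from 0.0312 to 0.151. In deposited intensity, the MEKK1-/- arrays ran from 789 to 1194 untreated and from 322 to 498 with conditioned medium.

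CXCL13, which guides B cells, lay between 6.56 and 6.86, at background on all arrays. CXCL14 was well above background throughout, with 12.73, 11.01, 11.94 and 12.40 on untreated MEKK1+/+ arrays and 12.47, 11.32, 12.07 and 12.45 with conditioned medium. On MEKK1-/- arrays it had 13.37, 12.26 and 12.05 on untreated arrays 1 to 3, with array 4 lowest, and 13.44, 12.08, 11.92 and 11.86 with conditioned medium. The same numbers kept the same place in both conditions, array 2 lowest in MEKK1+/+ cells and array 1 highest in MEKK1-/- cells.

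The CXCL14 change with conditioned medium was 0.06 in MEKK1+/+ cells (SE 0.43, 95% CI -0.86 to 0.97, adjusted p = 0.980). It was -0.10 in MEKK1-/- cells (95% CI -1.01 to 0.82, adjusted p = 0.961). Within numbers it ran from -0.26 to 0.31 in MEKK1+/+ cells and from -0.18 to 0.06 in MEKK1-/- cells, less than the SD of every group (0.53 to 0.75). The sign in MEKK1+/+ cells turned with the scaling, to -0.36 on the values as deposited, where the median of all genes moved to -0.28, and to -0.07 with arrays scaled to the same median. CXCL14 was 0.40 higher on untreated MEKK1-/- arrays (adjusted p = 0.791) and 0.25 higher with conditioned medium (adjusted p = 0.897). Array 1 of that genotype, highest for CXCL14, was also the array with epithelial marker means of 9.76 and 9.73. Without both arrays numbered 1 the genotype differences were 0.08 and -0.13.

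CXCL16, the ligand of CXCR6, had levels of 9.13, 9.84, 8.14 and 8.32 on untreated MEKK1-/- arrays. After exposure it had 10.78, 11.31, 10.88 and 10.97. The lowest conditioned medium array was well above the highest untreated array. CXCL16 rose by 2.13 on the log2 scale (SE 0.47, 4.37-fold, 95% CI 1.12 to 3.13, adjusted p = 0.0169, exact permutation p = 0.0286). The call was lost when untreated array 3 (adjusted p = 0.0642), untreated array 4 (adjusted p = 0.0639) or conditioned medium array 2 (adjusted p = 0.0550) was left out, with differences from 1.89 to 2.45 over all arrays left out in turn.

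In MEKK1+/+ cells CXCL16 had untreated levels of 9.74, 8.44, 10.05 and 11.28. After exposure it had 10.97, 11.04, 10.93 and 11.80. Untreated array 4 was above 3 of the conditioned medium arrays. The difference was 1.31 (SE 0.47, 2.47-fold, 95% CI 0.30 to 2.31, adjusted p = 0.144, exact permutation p = 0.114). Values were higher in 4 of 4 same-numbered arrays, but the numbers were not taken as pairs in MEKK1+/+ cells. Without untreated array 4 the difference was 1.77 (adjusted p = 0.0208), and without untreated array 2, the lowest, it was 0.83 (adjusted p = 0.371). The genotypes ended near each other, with means of 11.19 ± 0.41 in MEKK1+/+ cells and 10.99 ± 0.23 in MEKK1-/- cells with conditioned medium (SD, n = 4), and started from 9.88 ± 1.17 and 8.86 ± 0.78. The untreated difference of -1.02 had an unadjusted p of 0.0466 (adjusted p = 0.538, exact permutation p = 0.171) and was -0.55 without both MEKK1+/+ arrays numbered 4. Macrophage markers moved with CXCL16 among untreated MEKK1-/- arrays, where their mean level was 8.11, 8.75, 7.57 and 7.65 on arrays 1 to 4, in the same order as CXCL16. On untreated MEKK1+/+ arrays their mean was 9.18, 8.11, 8.88 and 8.81, lowest on the array that was lowest for CXCL16 but not highest on array 4. With conditioned medium the median change of the 12 markers was -0.001 in MEKK1+/+ and -0.02 in MEKK1-/- cells. The list of 14 NF-kB genes given below had the array order of CXCL16 in untreated cells of both genotypes. Its mean level was 8.42, 9.09, 8.34 and 8.35 on MEKK1-/- arrays 1 to 4 and 9.06, 8.37, 9.07 and 9.39 on MEKK1+/+ arrays. In this list MEKK1-/- arrays 3 and 4 were nearly level, and so were MEKK1+/+ arrays 1 and 3. The interferon-induced list, the interferon signalling list and the protease list given below had the CXCL16 order in untreated MEKK1+/+ cells but not in MEKK1-/- cells. The part of these lists in the CXCL16 levels was not tested.

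CX3CL1, which draws cells carrying CX3CR1, had the lowest adjusted p of the 8 genes in the response of each genotype. Its levels were 8.59, 9.13, 9.01 and 9.47 on untreated MEKK1+/+ arrays and 11.55, 10.72, 11.03 and 10.71 with conditioned medium. Every conditioned medium array was more than 1 log2 unit above every untreated array. CX3CL1 rose by 1.95 (SE 0.28, 3.86-fold, 95% CI 1.36 to 2.54, adjusted p = 0.00107, exact permutation p = 0.0286). In deposited intensity the arrays ran from 576 to 690 untreated and from 1341 to 2804 with conditioned medium.

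On MEKK1-/- arrays CX3CL1 had 9.93, 8.93, 9.79 and 9.70 untreated. With conditioned medium it had 10.63, 11.21, 11.60 and 11.80. The groups did not overlap, and array 1, where the epithelial marker mean was highest, was the highest untreated and the lowest conditioned medium array. CX3CL1 rose by 1.72 (SE 0.28, 3.30-fold, 95% CI 1.14 to 2.31, adjusted p = 0.00233, exact permutation p = 0.0286). Within numbers the rise was 0.70, 2.28, 1.81 and 2.10, beside 2.95, 1.59, 2.01 and 1.25 in MEKK1+/+ cells, where numbers were not taken as pairs. Without both MEKK1-/- arrays numbered 1 it was 2.07 (adjusted p = 0.00121). Both rises passed with every array left out in turn (adjusted p up to 0.00545 in MEKK1+/+ and 0.0109 in MEKK1-/- cells).

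**Figure D4:**
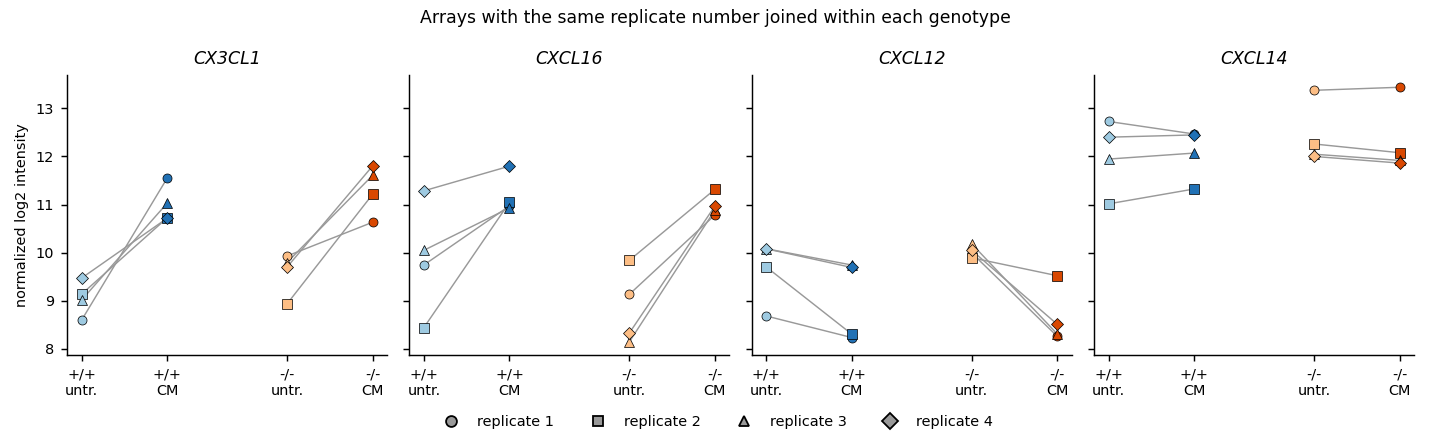
Normalized log2 intensity (y axis) of CX3CL1, CXCL16, CXCL12 and CXCL14, with arrays of the same number joined from untreated to conditioned medium within each genotype (x axis). All lines rise for CX3CL1 and CXCL16 and all fall for CXCL12, while those for CXCL14 are nearly level; the numbers are labels of the replicates and were taken as pairs in MEKK1-/- cells only.

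Ordered by mean level, CX3CL1 was highest with conditioned medium in MEKK1-/- cells (11.31 ± 0.52), then with conditioned medium in MEKK1+/+ cells (11.00 ± 0.39), then in untreated MEKK1-/- cells (9.59 ± 0.45) and untreated MEKK1+/+ cells (9.05 ± 0.36; SD, n = 4). The first 2 means differed by less than their spread, the middle step was 1.42 and the last 0.53. For CXCL12, the order was untreated MEKK1-/- (10.03 ± 0.12), untreated MEKK1+/+ (9.64 ± 0.66), MEKK1+/+ with conditioned medium (8.99 ± 0.84) and MEKK1-/- with conditioned medium (8.65 ± 0.59). No neighbours in the CXCL12, CXCL14 or CXCL16 orders differed by more than the larger SD of the pair. For CXCL9 and CXCL10 the step from MEKK1-/- cells with conditioned medium to untreated MEKK1-/- cells, at background, was larger than the SD, and the steps above it were not.

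Whether the response to conditioned medium differed between genotypes was asked with the interaction term, the MEKK1-/- response minus the MEKK1+/+ response. Of the 8 genes, 0 passed by limma (0% of all genes), and 0 had an unadjusted p under 0.05 (2.61% of all genes). The term was 0.82 for CXCL16 (SE 0.67, 95% CI -0.60 to 2.24) and -0.74 for CXCL12 (SE 0.55, 95% CI -1.91 to 0.44). With single arrays left out it ran from 0.35 (without untreated MEKK1+/+ array 4) to 1.29 (without untreated MEKK1+/+ array 2) for CXCL16, and from -1.03 (without conditioned medium MEKK1-/- array 2) to -0.42 (without untreated MEKK1+/+ array 1) for CXCL12. It was -0.23 for CX3CL1 (95% CI -1.06 to 0.61) and -0.15 for CXCL14 (95% CI -1.44 to 1.14). For CXCL9 and CXCL10 no term is given, since their MEKK1-/- response starts from background. The 4 intervals leave room for differences of more than 1 log2 unit in at least one direction for each of these genes. The CX3CL1 difference between genotypes was 0.53 in untreated cells (95% CI -0.05 to 1.12, adjusted p = 0.564) and 0.31 with conditioned medium (adjusted p = 0.785). For CXCL12 it was 0.39 untreated (adjusted p = 0.771) and -0.34 with conditioned medium (adjusted p = 0.835), and for CXCL16 with conditioned medium -0.20 (adjusted p = 0.926).

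**Figure D5:**
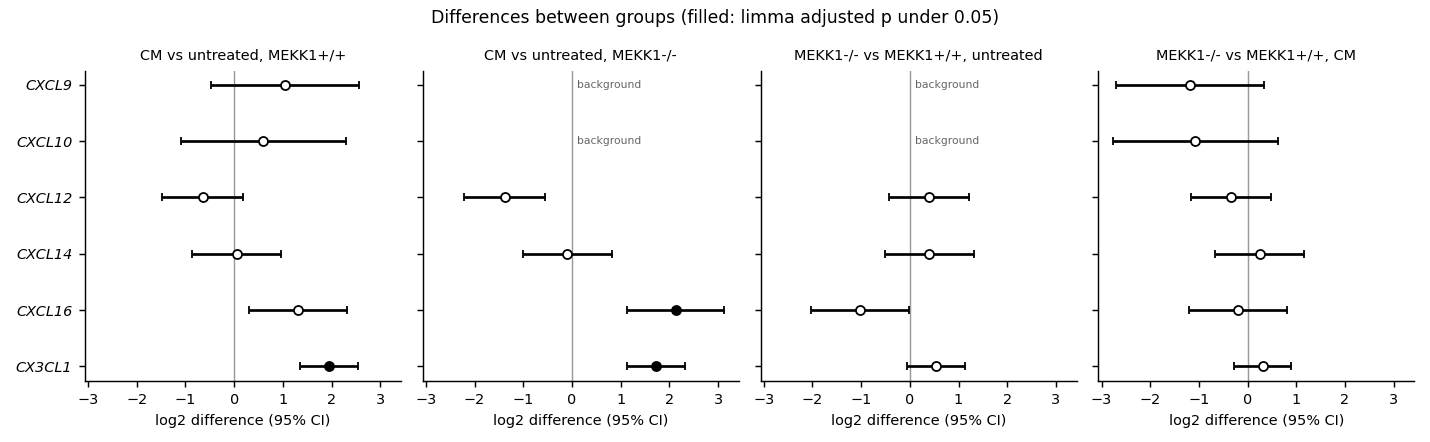
Log2 differences (x axis, points) with 95% confidence intervals (bars) for the 6 chemokine genes above background in some group, in the 4 comparisons of pairs of groups; filled points passed the limma adjusted threshold of 0.05 and "background" marks genes with no measured difference. Filled points are CX3CL1 in MEKK1+/+ cells (1.95) and CX3CL1 and CXCL16 in MEKK1-/- cells (1.72 and 2.13).

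The receptors of these chemokines were mostly at background. Of 6 receptor genes, CXCR3, CXCR5, CXCR6 and CXCR7 were above it on 0 of 16 arrays, CXCR4 on 4 and CX3CR1, which macrophages also carry, on 9. None of the 6 was called by limma in any comparison, and 1 had an unadjusted p under 0.05 in each comparison of a pair of groups, where 16.8%, 16.2%, 9.27% and 8.09% of all genes did (conditioned medium in MEKK1+/+ and in MEKK1-/- cells, then genotype untreated and with conditioned medium). Among 6 proteases known to cut chemokines, MMP9 rose with conditioned medium by 2.57 in MEKK1+/+ cells (adjusted p = 0.0310) and 3.31 in MEKK1-/- cells (adjusted p = 0.00772), with no other call. Of all genes, 2.27% and 2.18% were called higher in these comparisons. ADAM17, which can release CX3CL1 from the membrane, was above background on 16 arrays and differed with conditioned medium by 0.34 in MEKK1+/+ and 0.45 in MEKK1-/- cells (adjusted p = 0.295 and 0.149), and ADAM10, which can release CXCL16, was above it on 0. The response of single probes was not checked, so a level at background does not show that a gene's RNA is absent.

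Genes of the NF-kB pathway, whose motif letters stand in the CXCL10 promoter, were read as a list of 14. In MEKK1+/+ cells 2 of 14 were called higher with conditioned medium (2.27% of all genes) and 0 lower (2.75% of all genes). These 2 were NFKB2, a subunit (0.93, adjusted p = 0.0113), and IKBKE, a kinase (0.51, adjusted p = 0.0242). The median was 0.47 beside -0.002 over all genes. In MEKK1-/- cells 6 of 14 were called higher (2.18% of all genes) and 0 lower (2.51% of all genes), and the median was 0.76 beside -0.004. The largest rises were of NFKBIZ (2.02, adjusted p = 0.0173), NFKBIA (1.89, adjusted p = 0.0442), NFKB2 (1.28, adjusted p = 0.00152) and TNIP1 (1.26, adjusted p = 0.0431), of which NFKBIA and TNIP1 restrain the pathway. None passed between genotypes by limma. At an unadjusted p under 0.05 there were 4 in untreated cells (9.27% of all genes) and 0 with conditioned medium (8.09%). For the interaction, 0 of 14 passed by limma (0% of all genes) and 1 had an unadjusted p under 0.05 (2.61% of all genes). The unequal counts of the genotypes are not a test of a difference in response.

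The neutrophil-attracting CXC chemokines, which act on CXCR2, give a comparison within the same family. Of 5 found by symbol, CXCL3 and CXCL15 were above background on 0 arrays. In MEKK1-/- cells 2 of the 5 were called higher with conditioned medium, beside 2.18% of all genes. These were CXCL1, by 4.03 (adjusted p = 0.0276), and CXCL2, by 2.55 (adjusted p = 0.0104). In MEKK1+/+ cells 0 passed by limma and 1 had an unadjusted p under 0.05 (16.8% of all genes did), with 1.92 for CXCL1 (adjusted p = 0.349) and 1.77 for CXCL2 (adjusted p = 0.0646). For the interaction, 0 of the 5 passed by limma (0% of all genes), and the term was 2.11 for CXCL1 (SE 1.38). The difference between this group and the 8 genes was not tested.

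For the 4 genes above background on all arrays, the genes with the most similar pattern were taken by Pearson correlation over the 16 arrays among 6919 candidates, which share the arrays and their group means. CX3CL1 was most like ADAMTS4 (r = 0.930), WDR45 (r = 0.910) and TBC1D15 (r = 0.909). CXCL16 was most like MICALL2 (r = 0.970), NFKBIA (r = 0.968) and ZC3H12A (r = 0.967). CXCL12 was most like MYD88 (r = 0.878), KHDRBS1 (r = 0.842) and RAB31 (r = 0.822), and CXCL14 most like DDAH1 (r = 0.887), PRL2C4 (r = 0.887) and PRL2C3 (r = 0.855).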

How the data were processed

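RNA of 16 cultures of mouse mammary fibroblasts was measured on Illumina Mouse 8 arrays. The authors deposited 1 table of linear intensity values, normalized by a core facility with a method not given in the sources used here, with 1 value for each of 18132 gene symbols on each array. Probe detection values were not used here. Groups and replicate numbers came from the labels. Array medians ran from 114 to 170.1, so log2 values were quantile normalized between arrays. A gene's level was judged against the 99th percentile of 1075 olfactory receptor genes of each array. Precision is limited by the number of arrays.

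The 4 groups were fitted in 1 model by limma 3.58.1 (lmFit, then eBayes; R 4.3.3; 12 residual degrees of freedom), with Benjamini-Hochberg adjustment over all genes and a threshold of 0.05. The 5 comparisons were conditioned medium against untreated in each genotype, the genotypes untreated and with conditioned medium, and the interaction. Single genes were also compared by 2-sided exact permutation tests, which reach 0.0286 at the lowest. A chemokine had a measured difference only if it was above the olfactory receptor level on all 4 arrays of a group compared. From each list, genes past the threshold were named, or the 4 with the largest difference.

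Same-numbered arrays correlated after group means were removed, across genes, at 0.505, 0.403, 0.219 and 0.251 in MEKK1-/- cells, all above 0.1, so there the numbers were taken as pairs. This rests on the data, as the labels name no shared mouse or day, and arrays 3 and 4 correlated better with another number (0.28 and 0.541). On simulated data for conditioned medium in MEKK1+/+ cells, limma found 177 of 200 genes given a log2 change of 1 among 18132, and called 14 others. The 200 genes were drawn from those above background on all 16 arrays, with normal noise independent between arrays. Same-numbered arrays here were in part correlated, so these rates need not hold for the data, nor for genes near background such as CXCL9 and CXCL10. Alternatives were values as deposited, median scaling, z-scores and a z-test on them (the study's methods name z-scores), a pseudocount of 16, genes above background only, 2 groups only, trend and robust eBayes, array weights, replicate blocks and each array left out in turn. Omitting both MEKK1+/+ arrays numbered 4, or both MEKK1-/- arrays numbered 1, was added after seeing the data. The chemokines and lists were chosen with earlier results of these data known.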

Additional observations from a re-analysis of the deposited data

Results flagged for a closer look

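Of 32 sets of 4 arrays (8 genes in 4 groups), 5 had 1 array whose gap to the nearest other array took a share of the whole range above Dixon's 95% critical value, which chance passes in about 1 set of 20. CXCL10 was 10.62 on untreated MEKK1+/+ array 4 against 7.17 on the next array (ratio 0.943). With conditioned medium, CXCL10 was 11.07 on MEKK1+/+ array 4 against 7.92 (ratio 0.885). CXCL16 was 11.80 on the same array against 11.04 (ratio 0.868). CXCL9 was 7.14 on MEKK1-/- array 1 with conditioned medium against 8.29 (ratio 0.902), there the low end of its group. CXCL14 was 13.44 on that array against 12.08 (ratio 0.863).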

How the results depend on the processing

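Both rises of CX3CL1 passed the threshold under all 11 settings that kept every array (1.58 to 2.03 in MEKK1+/+ and 1.63 to 1.86 in MEKK1-/- cells), and so did the CXCL16 rise in MEKK1-/- cells (2.04 to 2.27). CXCL12 in MEKK1-/- cells, past the threshold under 7 of the 11 (-1.47 to -1.34), is undecided. No chemokine passed between genotypes or in the interaction under any setting. The arrays numbered 4 of MEKK1+/+ cells and 1 of MEKK1-/- cells carry a large part of the genotype differences of CXCL9, CXCL10 and CXCL14, and chemokines near background have no measured fold. The causes of the changes below were not tested.

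The number of genes past the threshold for conditioned medium in MEKK1+/+ cells was 909, and 1916 by the z-test on z-scores, 1481 with the replicate block within genotype, 591 with only the 2 groups compared and 506 to 1007 with single arrays left out. In MEKK1-/- cells it was 851, and 45 on values as deposited, 463 with median scaling, 2047 by the z-test, 1355 with array weights, 1438 with the block and 477 to 1027 with single arrays left out. Between untreated genotypes it was 0, and 817 by the z-test, 1 with array weights and 0 to 1 with single arrays left out. With conditioned medium it was 1, and 7 with median scaling, 460 by the z-test, 0 with only the 2 groups compared and 0 to 2 with single arrays left out, and for the interaction 0, 20 by the z-test and 0 to 1 with single arrays left out. The z-test also gave 9.56% of genes an unadjusted p under 0.05 on simulated arrays with no change and independent noise, against 4.82% by limma.

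Of the 8 chemokines, the count past the threshold in MEKK1+/+ cells was 1, and 4 with the replicate block within genotype (CXCL9, CXCL10, CXCL16 and CX3CL1, adjusted p from 0.00297 to 0.0292), and 1 to 2 with single arrays left out. Untreated CXCL10 was above background there on 1 of 4 arrays and CXCL9 on 3 of 4. The replicate numbers did not meet the pairing rule in MEKK1+/+ cells (correlations of -0.0379, 0.485, 0.12 and 0.576), and 3 of the 4 arrays correlated best with their own number. In MEKK1-/- cells the count was 2, and 4 by the z-test, 5 with the block (CXCL9, CXCL10, CXCL12, CXCL16 and CX3CL1, of which CXCL9 and CXCL10 start from background) and 1 to 3 with single arrays left out. A replicate block across all 4 groups changed the call of CXCL12 in MEKK1-/- cells alone (adjusted p = 0.0425).

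Signs turned for small differences. CXCL14 in MEKK1+/+ cells went from 0.06 to -0.36 as deposited and -0.072 with median scaling, and the genotype difference with conditioned medium from 0.25 to -0.012 with median scaling and -0.13 without both MEKK1-/- arrays numbered 1. That of CXCL16 went from -0.20 to 0.0052 without both MEKK1+/+ arrays numbered 4. Interactions as deposited were 0.18 for CXCL10, 0.18 for CXCL14 and 0.052 for CX3CL1, where the median of all genes moved by 0.29. The interactions of CXCL9 and CXCL10 hold a MEKK1-/- response from background and measure no difference in response. That of CXCL9 was -0.068 with median scaling, -0.0040 on z-scores (limma and z-test), -0.073 with array weights and -0.24 without both MEKK1+/+ arrays numbered 4. Without both MEKK1-/- arrays numbered 1 the interactions of CXCL10 and CX3CL1 were 0.10 and 0.11.

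With single arrays left out, the change with conditioned medium ran from -0.25 to 1.49 for CXCL10 and from -0.28 to 0.30 for CXCL14 in MEKK1+/+ cells, and from -0.47 to 0.22 for CXCL14 in MEKK1-/- cells. The genotype difference with conditioned medium ran from -0.12 to 0.40 for CXCL14 and from -0.31 to 0.0050 for CXCL16. Interactions ran from -0.82 to 0.61 for CXCL9, from -0.92 to 0.82 for CXCL10, from -0.52 to 0.19 for CXCL14 and from -0.44 to 0.0016 for CX3CL1.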
